A study of Homo sapiens with 90 samples.

Results

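HepG2 is an established cell line grown from a human liver tumour. Cultures received 2,4-D at 10 µM or only the DMSO vehicle over 24 h, and the 3 arrays of the exposed cells were compared with the 3 arrays of the vehicle cells. These 6 samples, of 90 sample columns in the series, were chosen by their titles, and every gene with a usable probe set was described, 19774 genes in all. Both groups grew in the same medium with serum in multiwell plates and both received 0.2% DMSO. The remaining columns held 8 lower doses of 2,4-D, from 0.001 µM upward, and the same 9 doses of the fungicides fenbuconazole and imazalil. The same DMSO arrays served all 3 compounds and were normalized once with each of them. The labels do not say that replicates came from separate cultures, so p-values measure only the spread between samples. For the comparison with DMSO this spread was pooled over the groups of all 30 columns of the 2,4-D set, not the 6 arrays alone. A tumour line in culture carries little of the drug-metabolizing enzyme of liver.

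2,4-D is a chlorophenoxy herbicide that acts in plants as a synthetic auxin. Animal cells have no auxin receptor of the plant kind. Chlorophenoxy acids are chemically related to the fibrate drugs, which activate the fatty acid receptor PPARA, and in rodents several of these herbicides increase liver peroxisomes. As organic acids they are carried by organic anion transporters and are excreted largely unchanged. The comparison asks which transcripts of a human liver cell line responded to the highest dose given, and how large a response could have gone unseen.

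Each value is the log2 signal of the brightest probe set of a gene, so a difference of 1 is a 2-fold change, and most transcripts that the cells did not use lay near 3. Array medians were 3.07 to 3.14 with 2,4-D and 3.06 to 3.15 with DMSO. The spread of values within an array, the interquartile range, was 3.07 ± 0.081 with 2,4-D and 3.08 ± 0.081 with DMSO (SD, n = 3 each, two-sided exact permutation p = 0.9, where 0.1 is the smallest possible). The signal of the 3' end over the 5' end of ACTB, a sign of RNA integrity, was 0.427 ± 0.11 log2 with 2,4-D and 0.417 ± 0.13 with DMSO (exact p = 0.9), and that of GAPDH was -0.123 ± 0.0058 with 2,4-D and -0.103 ± 0.025 with DMSO (exact p = 0.4). Across genes, arrays of the exposed cells correlated with each other at r = 0.99654 to 0.99684 and DMSO arrays at 0.99601 to 0.99725. A 2,4-D array and a DMSO array correlated at 0.9958 to 0.99819, a range that held both of the others, and the number of arrays limits the precision.

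The cells had the profile of a hepatocyte line in both groups. All 22 measured hepatocyte markers had a mean signal of at least 5, the level above which a gene is called bright here. Albumin (ALB) measured 13.17, 13.05 and 13.07 with 2,4-D and 13.21, 12.98 and 13.13 with DMSO, and the fetal liver protein AFP measured 12.56, 12.58 and 12.56 with 2,4-D and 12.51, 12.54 and 12.46 with DMSO. The AFP arrays did not overlap, yet the difference was 0.06 log2 (adjusted p = 1 by limma). Of 12 mesenchymal markers 2 were bright, TAGLN and ACTA2. Of 11 blood and endothelial markers 1 was bright, LYZ, with a mean of 11.06 with 2,4-D and 11.05 with DMSO. No hepatocyte marker differed by more than 0.09 log2 either way, and the 95% intervals of all 22 lay inside a rise of 25% and the fall of 20% that mirrors it.

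No gene passed the adjusted threshold between 2,4-D at 10 µM and DMSO (0% of 19774 genes, limma with Benjamini-Hochberg adjustment at 0.05). The smallest adjusted p was 0.836. At an unadjusted p below 0.05 there were 411 genes higher with 2,4-D (2.08%) and 372 lower (1.88%), together 3.96%. The 3 exposed arrays all lay above the 3 DMSO arrays in 682 genes (3.45%) and all below them in 653 (3.3%). The differences ran between -0.52 log2 (PLEKHM3) and 0.49 (AK9), both genes with a mean signal under 5. With the mean over all probe sets of each gene these became -0.24 and 0.12. A total of 13542 genes (68.5%) lay within 0.1 log2 of DMSO and 272 were more than 0.3 away. Against 9945 higher genes there were 9829 lower ones, and the median difference was 0.000767.

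The size of change that the data exclude was read from the 95% interval of each gene. A change of 2-fold lay outside the interval of all 19774 genes, in either direction. A change of 1.5-fold lay outside it for 19430 genes (98.3%), and a change of 25%, meaning a rise of 25% or the fall of 20% that mirrors it, for 12115 (61.3%). Among the 8720 bright genes these shares were 100%, 99.3% and 80.4%. The larger of the 2 interval limits, taken as a fold in either direction, had a median of 1.22 over all genes, a 95th percentile of 1.42 and a 99th of 1.55. Over bright genes the same figures were 1.18, 1.35 and 1.47.

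**Figure D1:**
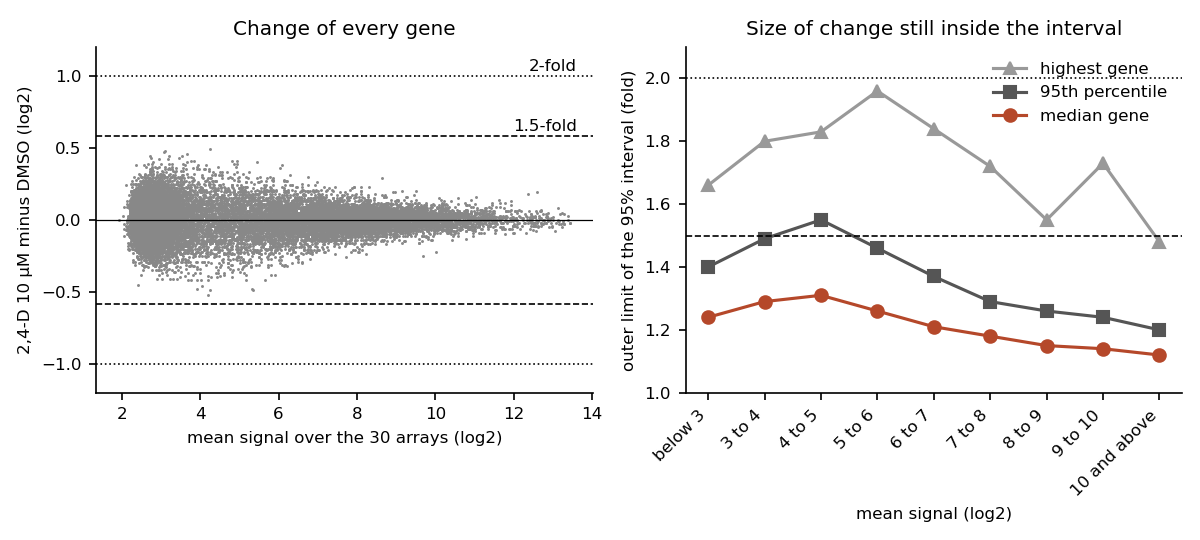
Left, the log2 difference of each of 19774 genes between 2,4-D at 10 µM and DMSO (y axis) against its mean log2 signal over the 30 arrays of the 2,4-D set (x axis); right, the outer limit of the 95% interval as a fold (y axis) for the median gene, the 95th percentile and the highest gene in bins of mean signal (x axis). No point lies outside the dashed 1.5-fold lines, and the median limit is 1.24-fold below a signal of 3, 1.31-fold at 4 to 5 and 1.12-fold at 10 and above.

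The limit was widest for genes of middling signal. Below a signal of 3 the median limit was 1.24-fold and 53 of 6812 genes were not held inside 1.5-fold, and at 3 to 4 it was 1.29-fold with 135 of 3016 not held. For genes with a mean signal of 4 to 5 the median limit was 1.31-fold, with 99 of 1226 not held, and at 5 to 6 it was 1.26-fold with 41 of 1424. At a signal of 8 to 9 the median limit was 1.15-fold with 1 gene of 1621 not held, and at 10 and above it was 1.12-fold with none of 923. The widest limit was 1.96-fold, for ZBTB20, a transcriptional repressor expressed in liver. Its arrays measured 5.37, 4.37 and 5.24 with 2,4-D and 5.64, 5.23 and 5.56 with DMSO. One exposed array stood low, and without that array, replicate 2, the difference of -0.49 log2 became -0.17 log2. For the 9828 genes with a mean under 4 a narrow interval concerns the probe signal, which may hold little of the transcript, and the exclusion then says little of the gene.

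Intervals made to hold for all genes at the same time were wider. With a Bonferroni correction over 19774 genes, a 2-fold change was excluded for 88.6% of genes and 94.9% of bright ones, and a 1.5-fold change for 25.9% and 50.4%. By pairs of one-sided tests with Benjamini-Hochberg adjustment, 99.1% of genes changed by less than 1.5-fold. A single gene standing alone would have needed a difference of 0.643 log2, or 1.56-fold, to pass the adjusted threshold at the median standard error, and 0.523 log2, or 1.44-fold, at that of bright genes. A smaller change in few genes was therefore not detectable by the adjusted test, although a change of 2-fold lay outside each gene's own interval.

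The bright genes with the smallest p included 5 above and 5 below DMSO, and none passed the threshold. EXOC3, a subunit of the exocyst complex that tethers secretory vesicles, measured 5.62, 5.68 and 5.55 with 2,4-D and 5.24, 5.21 and 5.21 with DMSO. The groups did not overlap, and the difference was 0.40 ± 0.0822 log2 (SE), or 1.32-fold with a 95% interval of 1.17 to 1.48 (adjusted p = 0.836). Its dimmer second probe set, at a signal of 3.27, differed by 0.09 log2. PMS2P1, a pseudogene of the mismatch repair gene PMS2, measured 6.49, 6.39 and 6.38 with 2,4-D and 6.74, 6.69 and 6.73 with DMSO, a difference of -0.30 ± 0.0652 log2 (adjusted p = 0.836). Its probes may also bind transcripts of the PMS2 family, so which copy was measured is uncertain.

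AKR1B10, an aldo-keto reductase that reduces retinal and other aldehydes, measured 8.14, 8.16 and 8.11 with 2,4-D and 7.87, 7.94 and 7.93 with DMSO. The difference was 0.23 ± 0.0638 log2, or 1.17-fold (1.07 to 1.28), with no overlap and an adjusted p of 1. AKR1C1, which reduces steroids, measured 12.78, 12.79 and 12.86 with 2,4-D and 12.54, 12.72 and 12.59 with DMSO, a difference of 0.19 log2. Its other probe sets differed by 0.06 to 0.59 log2, and the mean over all of them by 0.29. CINP, which binds a cyclin-dependent kinase, averaged 6.26 ± 0.05 with 2,4-D and 6.03 ± 0.07 with DMSO, and ZNF124, a zinc finger protein, 6.88 ± 0.02 with 2,4-D and 6.59 ± 0.16 with DMSO (SD, n = 3 each). These 3 genes also separated the groups on every array.

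On the lower side, PAN2, the catalytic subunit of a deadenylase that shortens poly(A) tails, averaged 5.92 ± 0.10 with 2,4-D and 6.18 ± 0.10 with DMSO. ACTMAP, a protease that matures actin, averaged 5.61 ± 0.05 with 2,4-D and 5.93 ± 0.09 with DMSO, and FAM216A 6.45 ± 0.10 with 2,4-D and 6.69 ± 0.10 with DMSO. ATRIP, the partner of the checkpoint kinase ATR, had the lowest difference of these, -0.48 ± 0.145 log2, with arrays at 4.88, 5.28 and 4.80 with 2,4-D and 5.27, 5.63 and 5.49 with DMSO. One of its exposed arrays lay above the lowest DMSO array. The adjusted p was 1 for each of these 4 genes.

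**Figure D2:**
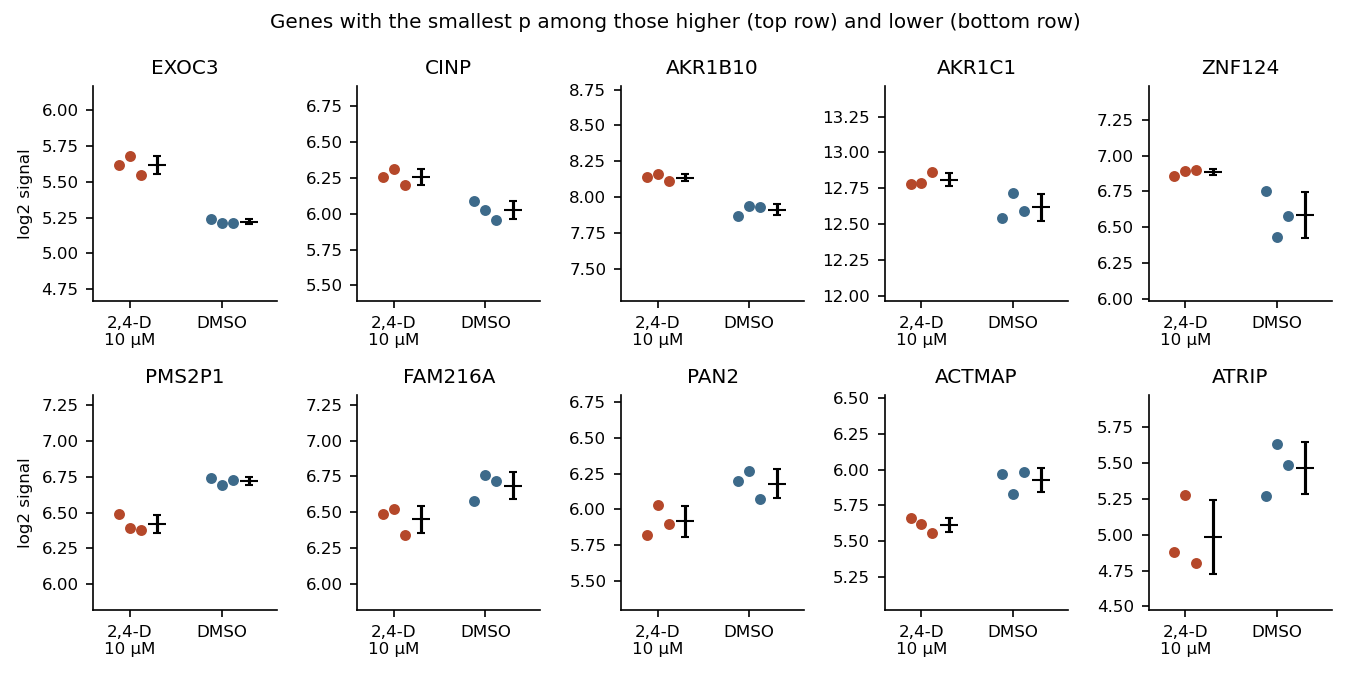
Log2 signal (y axis, a range of 1.5 in each panel) on each array with 2,4-D at 10 µM (left, 3 points) and DMSO (right, 3 points), with the mean and SD of each group beside them, for the 5 bright genes with the smallest p above DMSO and the 5 below it. EXOC3 holds 5.55 to 5.68 with 2,4-D and 5.21 to 5.24 with DMSO, while the groups of ATRIP overlap.

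The lower doses set these differences in context. EXOC3 stood above DMSO at each of the 8 lower doses too, by 0.08 to 0.42 log2, with 0.27 at 0.001 µM, and against the 3 lowest doses it differed at 10 µM by 0.08 log2 (unadjusted p = 0.262). PMS2P1 lay below DMSO at all 8, by -0.21 to -0.05, as did PAN2, by -0.27 to -0.06. For these genes the DMSO mean lay on one side of the means of all 9 doses. AKR1B10 behaved otherwise, with -0.09 to 0.03 at the lower doses and 0.23 at 10 µM. AKR1C1 lay between -0.17 and 0.07 at the lower doses and FAM216A between -0.08 and 0.01. The rise of AKR1B10 and AKR1C1 was not particular to 2,4-D. Against DMSO, AKR1B10 stood at 0.17 log2 with imazalil and 0.34 with fenbuconazole at 10 µM, and AKR1C1 at 0.15 and 0.23. None of these passed the adjusted threshold.

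A reference that leaves out the DMSO arrays was therefore also used, the 9 arrays of the 0.001, 0.003 and 0.01 µM groups. Again no gene passed (0% of 19774, smallest adjusted p = 0.129), and 856 had an unadjusted p below 0.05, 562 of them higher at 10 µM (2.84%) and 294 lower (1.49%). The closest were ZAP70, a kinase of T cell receptor signalling, at 0.43 log2, and SEMA4A, a semaphorin, at 0.46, and both had a signal near 3, in the range of transcripts that the cells did not use. Among brighter genes SLC22A7 differed by -0.41 log2 (unadjusted p = 5.82e-05, adjusted p = 0.384), AKR1B10 by 0.24 (adjusted p = 0.473) and AKR1C1 by 0.20 (adjusted p = 0.538). The metallothionein MT1F differed by 0.24 (adjusted p = 0.538). A slope over the 9 doses was called in no gene (0% of 19774, smallest adjusted p = 1), with 901 genes at an unadjusted p below 0.05.

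**Figure D3:**
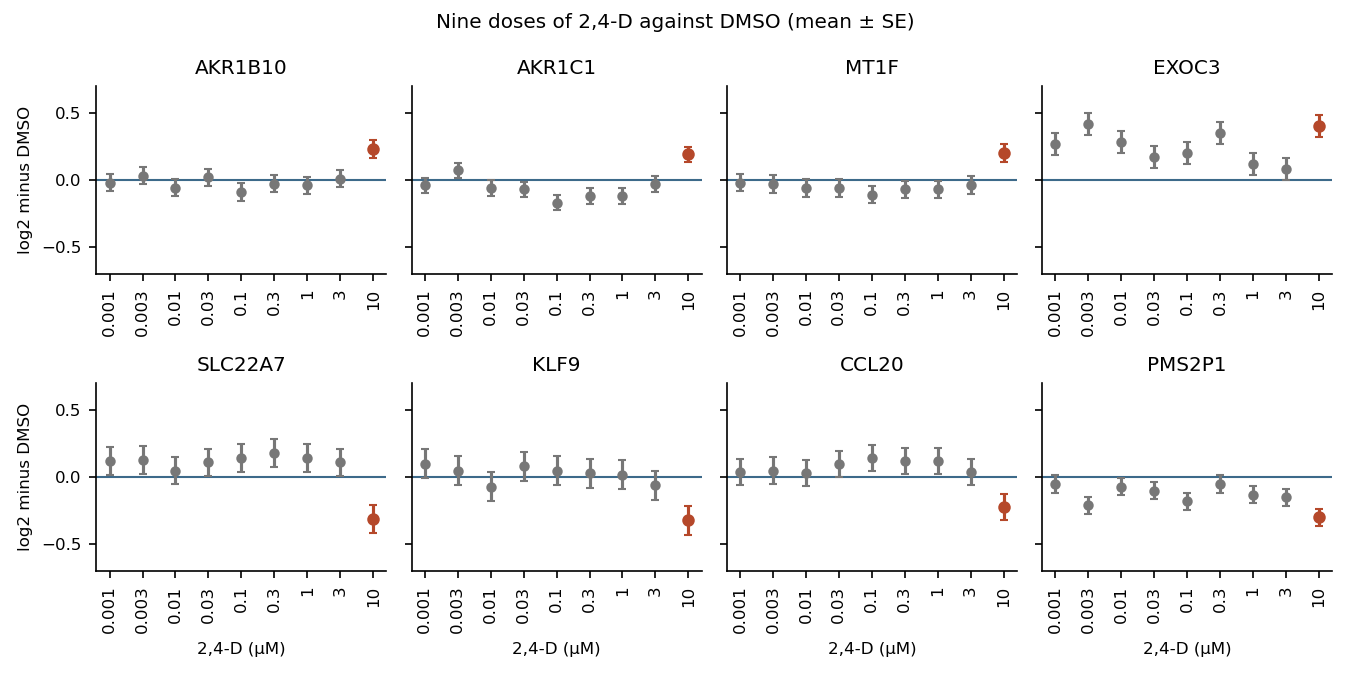
Log2 difference from DMSO (y axis, mean with its SE) at each of 9 doses of 2,4-D (x axis, µM, evenly spaced), with 10 µM in red, for 8 genes chosen after their values were seen. AKR1B10, AKR1C1 and MT1F stand at 0.19 to 0.23 at 10 µM alone, SLC22A7, KLF9 and CCL20 at -0.32 to -0.22, and EXOC3 lies above 0 at every dose.

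The remaining description takes 27 lists of genes of pathways that a chlorophenoxy acid or a general toxic response could touch. They held 491 distinct genes, of which 439 were measured and 326 were bright. None passed the adjusted threshold. At an unadjusted p below 0.05, 12 were higher with 2,4-D and 13 lower, or 5.69%, beside 3.96% of all genes, and the arrays did not overlap in 16 higher members (3.64%) and 15 lower ones (3.42%), beside 3.45% and 3.3% of all genes. A 1.5-fold change was excluded for 435 of the 439 (99.1%), beside 98.3% of all genes. The 4 others were CYP4A11, OSGIN1, PLK3 and OAS1, all with a mean under 5. List medians ran between -0.056 and 0.089 log2, where the median of all genes was 0.000767.

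PPARA switches on fatty acid oxidation in liver when bound by fatty acids or fibrates. Of 27 listed targets 23 were measured and 16 were bright, 10 were higher than DMSO, and the list median was -0.022 log2. CPT1A, which carries long-chain fatty acids into mitochondria, measured 6.32, 6.30 and 6.24 with 2,4-D and 6.17, 6.49 and 6.27 with DMSO, with a fold of 0.983 (95% interval 0.851 to 1.14). PLIN2, the coat protein of lipid droplets, had a fold of 0.977 (0.848 to 1.13), and FABP1, the liver fatty acid binding protein, 1.07 (0.899 to 1.27). PDK4, a kinase that shuts glucose carbon out of mitochondria, was dim at a mean of 2.54 with 2,4-D and 2.67 with DMSO. ANGPTL4, an inhibitor of lipoprotein lipase, was also dim and had a fold of 0.876 (0.686 to 1.12).

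CYP4A11, a fatty acid hydroxylase and one of the human targets of PPARA, was the only member with an unadjusted p below 0.05, and its difference was negative. It measured 3.51, 3.44 and 3.31 with 2,4-D and 3.58, 3.73 and 3.95 with DMSO, a difference of -0.34 ± 0.149 log2 (unadjusted p = 0.0335, adjusted p = 1). Its arrays did not overlap, it lay below DMSO at all 8 lower doses as well, and its interval reached 1.56-fold. Its 2 other probe sets, with signals of 2.49 and 2.61, differed by -0.20 and 0.08 log2, and the mean over all of them by -0.15. Of the listed targets, 22 of 23 had a 1.5-fold change excluded.

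Genes of peroxisome assembly and peroxisomal enzymes were described beside them. Of 24 listed, 20 were measured, 12 were higher and the median was 0.024 log2. All 20 had a 1.5-fold change excluded. Catalase (CAT), which breaks down hydrogen peroxide, measured 10.39, 10.25 and 10.28 with 2,4-D and 10.22, 10.25 and 10.22 with DMSO, a fold of 1.05 (0.965 to 1.15). A second CAT probe set, at a signal of 8.66, differed by 0.18 log2 (unadjusted p = 0.0303 by limma), and a dim one by 0.05. CRAT, a carnitine acetyltransferase, stood lower on all exposed arrays, by -0.14 log2 (unadjusted p = 0.0335). PEX7, a peroxisomal import receptor, and AMACR, a racemase of branched fatty acids, had differences of 0.21 and 0.27 log2 at signals under 3. With the mean over all probe sets of each gene these became 0.02 for PEX7, 0.05 for AMACR and -0.05 for CRAT.

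The receptors that sense foreign chemicals gave the following values. CYP1A1, the enzyme most strongly induced through the dioxin receptor AHR, measured 4.56, 4.73 and 4.61 with 2,4-D and 4.19, 4.88 and 4.73 with DMSO. The exposed arrays lay inside the range of the DMSO arrays, and the fold was 1.02 (0.866 to 1.21). The DMSO arrays had an SD of 0.36 and decided the sign, since the difference was -0.17 log2 without DMSO replicate 1 and 0.18 without DMSO replicate 2. CYP1B1 had a fold of 0.889 (0.743 to 1.06) at a signal near 3, and TIPARP, a feedback repressor of AHR, 1.04 (0.95 to 1.14). Of 11 measured AHR targets 5 were bright, and all 11 had a 1.5-fold change excluded. Against DMSO none had an unadjusted p below 0.05 by limma, and the median was 0.035 log2. Against the 3 lowest doses TIPARP alone fell below that limit, at 0.15 log2. The slopes over the 9 doses of TIPARP, CYP1A1 and UGT1A6 also did, at 0.038, 0.045 and 0.052 log2 per 10-fold dose. None of these passed the adjusted threshold.

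Of 14 measured targets of PXR and CAR, receptors for drugs and steroids, 7 were bright and 10 were higher than DMSO. The list median was 0.058 log2 against DMSO and -0.0034 against the 3 lowest doses. CYP3A4 had a fold of 0.948 (0.864 to 1.04) and CYP2B6 1.05 (0.855 to 1.29), both dim. CYP3A7, the fetal form, measured 4.40, 4.57 and 4.39 with 2,4-D and 4.04, 4.11 and 4.47 with DMSO, a fold of 1.19 (0.982 to 1.43). ALAS1, which starts haem synthesis, had a fold of 1.02 (0.917 to 1.13). ABCC2, an efflux pump for organic anions and conjugates, measured 8.15, 8.38 and 8.25 with 2,4-D and 7.98, 8.09 and 8.02 with DMSO, a difference of 0.23 ± 0.106 log2 (unadjusted p = 0.0387, adjusted p = 1). The ABCC2 arrays did not overlap, and its means at the 8 lower doses ran between 0 and 0.18 log2 against DMSO. With imazalil and fenbuconazole at 10 µM, ABCC2 stood at 0.25 and 0.24 log2 against DMSO and CYP3A7 at 0.39 and 0.45. None of these passed the adjusted threshold.

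**Figure D4:**
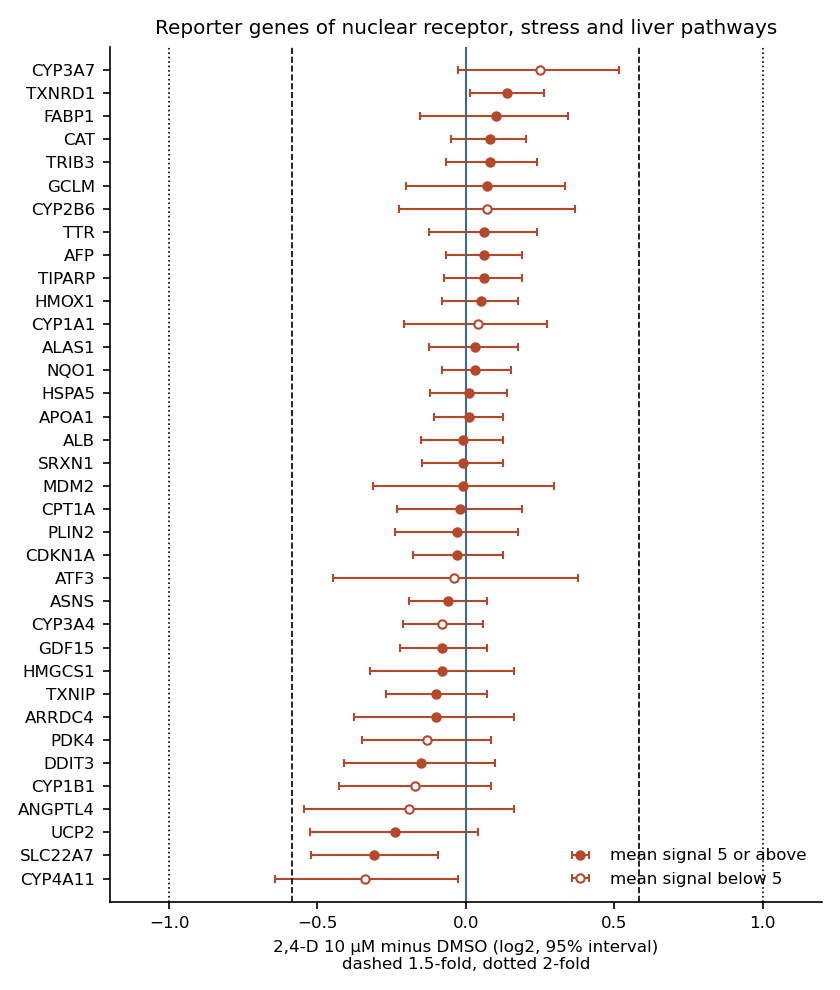
Log2 difference between 2,4-D at 10 µM and DMSO (x axis) with its 95% interval for 36 genes that report nuclear receptor, stress and liver functions (y axis, one gene per line), filled where the mean signal is at least 5. The interval of CYP4A11 alone crosses the dashed 1.5-fold line, and CYP4A11, SLC22A7 and TXNRD1 have intervals that leave out 0.

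Transporters and enzymes that handle organic acids were measured because 2,4-D is one. SLC22A7, the liver organic anion transporter OAT2, measured 5.63, 5.23 and 5.19 with 2,4-D and 5.91, 5.51 and 5.56 with DMSO. It was lower in each same-numbered pair while the groups overlapped, with a difference of -0.31 ± 0.104 log2 (unadjusted p = 0.00677, adjusted p = 1). At the 8 lower doses it stood 0.05 to 0.18 log2 above DMSO, so 10 µM gave the lowest mean of the 10 groups. Without DMSO replicate 1 the difference was -0.18 log2. Its 4 other probe sets differed by -0.22 to -0.08 log2. The uptake transporter SLCO1B1 differed by 0.30 log2 at a signal of 2.56. Of 14 measured transporters 9 were higher, with a median of 0.031 log2. Enzymes that conjugate carboxylic acids to amino acids or sugars had 11 members measured and 3 bright, none with an unadjusted p below 0.05 and a median of 0.034.

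NRF2 drives the transcription of antioxidant and reductive enzymes. Of 19 measured targets 12 were higher, 4 had an unadjusted p below 0.05 upward and 1 downward, beside 2.08% and 1.88% of all genes, and the list median was 0.02 log2. The 4 were AKR1B10, AKR1C1, AKR1C2 and TXNRD1. AKR1C2 measured 12.54, 12.60 and 12.61 with 2,4-D and 12.33, 12.47 and 12.42 with DMSO. AKR1C1, AKR1C2 and AKR1C3 are near-identical in sequence, and probes can bind more than one of them, so these values are not separate measurements. TXNRD1, thioredoxin reductase, measured 10.16, 10.23 and 10.33 with 2,4-D and 10.06, 10.12 and 10.12 with DMSO, a fold of 1.10 (1.01 to 1.20).

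Other well-known targets of NRF2 gave these values. NQO1, a quinone reductase, measured 11.80, 11.75 and 11.71 with 2,4-D and 11.80, 11.74 and 11.61 with DMSO, a fold of 1.02 (0.945 to 1.11). HMOX1, haem oxygenase, had a fold of 1.03 (0.945 to 1.13), GCLM, a subunit of the enzyme that starts glutathione synthesis, 1.05 (0.869 to 1.26), and SRXN1, sulfiredoxin, 0.99 (0.903 to 1.09). SLC7A11, the cystine importer, stood at -0.22 log2 (unadjusted p = 0.0197) with overlapping arrays. The mean over all its probe sets gave -0.01 log2. The lowest member was OSGIN1, an inhibitor of growth, with 4.47, 4.45 and 4.18 with 2,4-D and 4.47, 4.77 and 4.77 with DMSO, a difference of -0.31 ± 0.158 log2 (unadjusted p = 0.0622) and an interval that reached 1.55-fold.

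Metallothioneins bind zinc and copper and are induced by metals. Of 9 measured genes of metallothioneins and zinc transport 8 were higher than DMSO, with a median of 0.056 log2. MT1F measured 9.71, 9.66 and 9.81 with 2,4-D and 9.50, 9.50 and 9.59 with DMSO, a difference of 0.20 ± 0.0653 log2, or 1.15-fold (1.04 to 1.26, adjusted p = 1). At the lower doses MT1F lay between -0.11 and -0.02. Its other probe set, at a signal of 9.13, differed by 0.08 log2 at 10 µM, and the mean over its probe sets by 0.14. Against the 3 lowest doses, MT1E, MT1F, MT1G, MT1X and MT2A differed by 0.13 to 0.24 log2 with an unadjusted p below 0.05, where 2.84% of all genes were higher by that measure, and none passed the adjusted threshold. Metallothionein probes also share sequence. MT1M, at a signal of 2.51, stood at -0.31 log2.

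Stress programmes showed intervals close to DMSO. CDKN1A, the cell cycle inhibitor induced by p53, measured 6.79, 6.78 and 6.94 with 2,4-D and 6.70, 6.91 and 6.97 with DMSO, a fold of 0.983 (0.883 to 1.09). MDM2, the ligase that degrades p53, had a fold of 0.994 (0.806 to 1.23), and 6 of 20 measured p53 targets were higher. PLK3, a stress kinase, stood at -0.42 log2 at a mean of 4.03, with an interval that reached 1.66-fold, and the mean over its probe sets gave -0.07. In the integrated stress response, 21 genes had a median of -0.018, and ASNS, asparagine synthetase, had a fold of 0.96 (0.875 to 1.05), DDIT3 0.899 (0.753 to 1.07) and TRIB3 1.06 (0.954 to 1.18). All 21 had a 1.5-fold change excluded.

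Chaperones of the endoplasmic reticulum gave the tightest picture of the stress lists, as all 19 had a 25% change excluded. HSPA5, the main chaperone there, measured 11.99, 11.97 and 11.96 with 2,4-D and 12.05, 11.83 and 12.00 with DMSO, a fold of 1.01 (0.92 to 1.1). All 12 measured heat shock genes also had a 25% change excluded. HSPB1, a small heat shock protein, measured 8.16, 8.16 and 8.05 with 2,4-D and 8.29, 8.25 and 8.34 with DMSO, a difference of -0.17 log2 without overlap (unadjusted p = 0.0149, adjusted p = 1).

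Lipid and sugar metabolism was measured in several lists. Cholesterol synthesis and uptake had the lowest median of the 27 lists, -0.056 log2, with 7 of 20 measured genes higher and none with an unadjusted p below 0.05. HMGCS1, which makes the precursor of mevalonate, measured 8.62, 8.51 and 8.56 with 2,4-D and 8.75, 8.54 and 8.64 with DMSO, a fold of 0.946 (0.799 to 1.12). In fatty acid and triglyceride synthesis 8 of 20 were higher, and ELOVL6, an elongase, stood at -0.21 log2 (unadjusted p = 0.0323). TXNIP, a glucose-responsive inhibitor of thioredoxin, measured 8.51, 8.79 and 8.68 with 2,4-D and 8.74, 8.79 and 8.75 with DMSO, a fold of 0.933 (0.83 to 1.05).

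Among thyroid hormone responsive genes KLF9, a transcription factor also induced by glucocorticoids, stood lowest. It measured 6.03, 6.0 and 5.67 with 2,4-D and 6.34, 6.13 and 6.21 with DMSO, a difference of -0.32 ± 0.108 log2 with no overlap (unadjusted p = 0.00588, adjusted p = 1). At the lower doses KLF9 lay between -0.07 and 0.10, and with the mean over all its probe sets the difference was -0.11 log2. KLF9 also stood below DMSO with imazalil (-0.50 log2) and fenbuconazole (-0.21) at 10 µM, neither past the adjusted threshold. The 12 other members lay between -0.08 and 0.16.

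Energy and growth genes mostly stayed near DMSO. All 25 measured respiratory chain subunits had a 1.5-fold change excluded and 24 a 25% change, with values from -0.09 to 0.08 log2. UCP2, a mitochondrial carrier, measured 5.58, 5.85 and 5.65 with 2,4-D and 6.07, 5.89 and 5.85 with DMSO, a fold of 0.847 (0.695 to 1.03). Its dimmer second probe set, at a signal of 3.38, differed by -0.41 log2 (unadjusted p = 0.00506 by limma). Of 27 cell cycle genes, all bright, 8 were higher, the median was -0.011 and the range was -0.15 (PLK1, a mitotic kinase) to 0.11 (CCND1, cyclin D1). Glycolysis and hypoxia genes had a median of -0.0067 over 21 members, and none had an unadjusted p below 0.05.

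**Figure D5:**
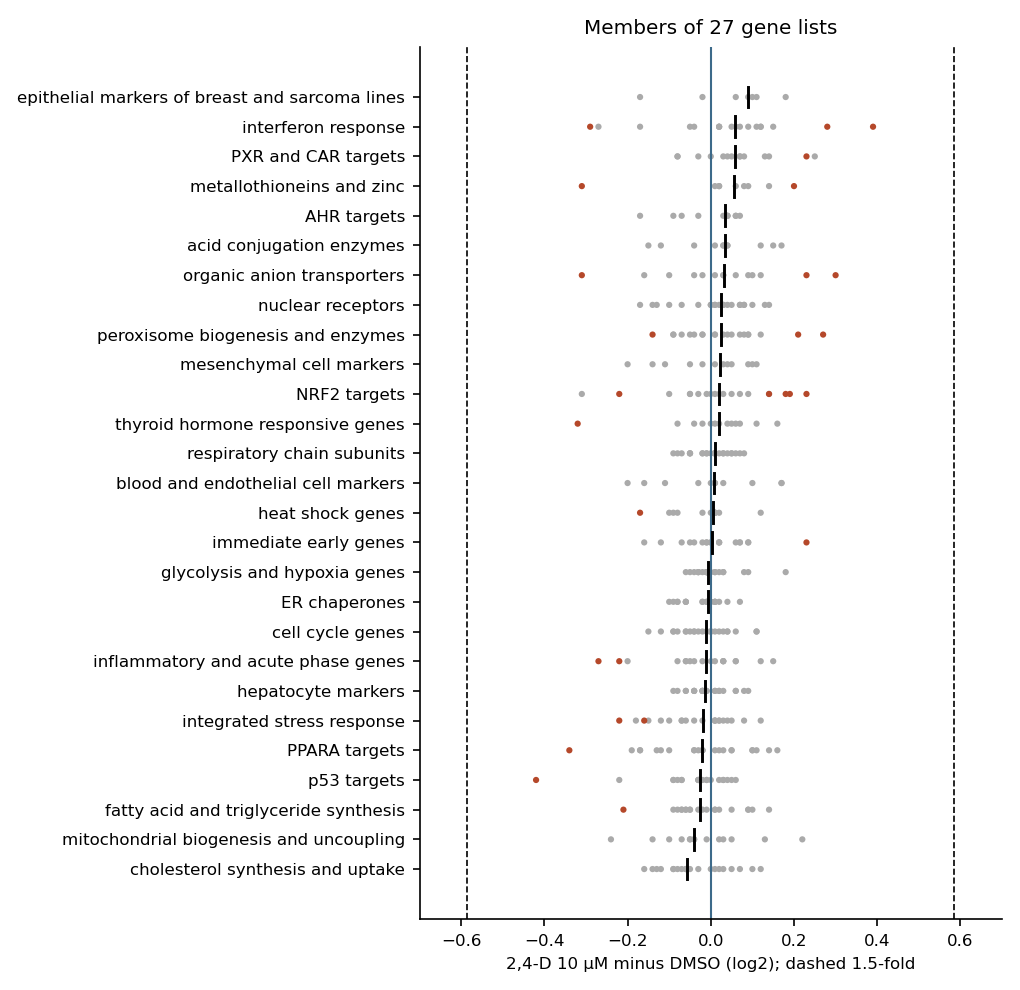
Log2 difference between 2,4-D at 10 µM and DMSO (x axis) of each measured member of 27 gene lists (y axis, ordered by median), with a black bar at the list median and red points for an unadjusted p below 0.05. Every point lies inside the dashed 1.5-fold lines and the medians run between -0.056 and 0.089.

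Signalling and immune lists held mostly dim genes. Of 18 measured interferon genes 5 were bright. OAS1, an antiviral enzyme, stood at 0.39 log2, IFI44L at 0.28 and IFI27 at -0.29, each at a signal under 4. OAS1 became 0.14 with the mean over its probe sets, and IFI27, which lay below DMSO at all 8 lower doses, became -0.13 without DMSO replicate 2. CCL20, a chemokine, was bright and measured 9.90, 9.83 and 9.54 with 2,4-D and 10.00, 10.01 and 9.93 with DMSO, a difference of -0.22 ± 0.0973 log2 with no overlap (unadjusted p = 0.031, adjusted p = 1). CCL20 stood 0.03 to 0.14 log2 above DMSO at the 8 lower doses, and without 2,4-D replicate 3 the difference was -0.11 log2. Of 22 measured nuclear receptors 14 were bright, none had an unadjusted p below 0.05, and all had a 1.5-fold change excluded.

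The 2 fungicides at the same 10 µM show what the arrays recorded elsewhere in the series. Imazalil changed 21 genes against DMSO (0.106% of genes) and fenbuconazole 3 (0.0152%), by the same test. The compounds share their DMSO arrays, so the differences between compounds were tested directly. Between 2,4-D and imazalil 50 genes differed (0.253%), 27 higher and 23 lower with 2,4-D, and between 2,4-D and fenbuconazole 18 differed (0.091%), 3 higher and 15 lower. The counts depended on the arrays used. Leaving out replicate 1, 2 or 3 of every group gave 19, 12 and 10 genes against imazalil and 4 each time against fenbuconazole. Joint normalization of all columns, with the 10 µM groups compared directly and no DMSO means subtracted, gave 193 and 122. Of the 50 genes, 5 passed whichever replicate was left out (CYP1A1, DKK1, MCC, SGK1 and TXNIP), and of the 18 genes 2 did (CYP1A1 and ACSS2).

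CYP1A1 led both comparisons. It stood at 0.04 log2 against DMSO with 2,4-D, at 3.01 with imazalil and at 1.65 with fenbuconazole. The difference between 2,4-D and imazalil was -2.98 ± 0.168 log2 (SE, adjusted p = 1.02e-16), and that between 2,4-D and fenbuconazole was -1.62 ± 0.17 (adjusted p = 1.02e-07). TXNIP was 0.75 ± 0.0894 log2 higher with 2,4-D than with imazalil (adjusted p = 7.73e-07). DKK1, a secreted Wnt inhibitor, was 0.47 ± 0.0556 higher with 2,4-D than with imazalil (adjusted p = 7.73e-07), and CYP24A1, which inactivates vitamin D, 0.73 lower (-0.73 log2, adjusted p = 0.000798). CYP24A1 no longer passed without replicate 1 (adjusted p = 0.077) or replicate 2 (adjusted p = 0.219). Set beside DMSO, 2,4-D gave -0.04 log2 for both DKK1 and CYP24A1.

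Of 20 measured genes of cholesterol synthesis and uptake, 5 were lower with 2,4-D than with fenbuconazole past the threshold (DHCR7, HMGCS1, HSD17B7, LSS and MVD) and 0 were higher. Over all 19774 genes 15 were lower and 3 higher (0.091% together). The list median was -0.27 log2 where that of all genes was 0.00041. Against imazalil 0 of the 20 genes passed either way, with a list median of -0.11. HMGCS1 differed by -0.61 ± 0.115 log2 (adjusted p = 0.00871) and MVD, a later enzyme of the mevalonate pathway, by -0.76 ± 0.123 (adjusted p = 0.000893). Set beside DMSO, HMGCS1 stood at -0.08 log2 with 2,4-D and at 0.53 with fenbuconazole. MVD stood at -0.16 and 0.61, and the adjusted p with fenbuconazole was 0.0681 for each by limma. With a replicate left out, the adjusted p was 0.0666 to 0.314 for HMGCS1 and 0.00818 to 0.31 for MVD. ACSS2, which makes acetyl-CoA from acetate, differed by -0.65 ± 0.0871 (adjusted p = 2.19e-05) and passed each time. Set beside DMSO, ACSS2 stood at -0.09 log2 with 2,4-D and at 0.56 with fenbuconazole. ARRDC4, an arrestin-like relative of TXNIP, was 0.60 ± 0.121 higher with 2,4-D (adjusted p = 0.0173, and 0.0666 to 0.462 with a replicate left out).

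SLC51B, a bile acid exporter subunit, was lower with 2,4-D than with both fungicides, by -1.15 ± 0.165 against imazalil (adjusted p = 4.73e-05) and by -0.80 ± 0.14 against fenbuconazole (adjusted p = 0.00371). Neither passed without replicate 3 (adjusted p = 0.0592 and 0.272), nor did the second without replicate 1 or 2 (adjusted p = 0.123 and 0.0518). On 2,4-D arrays SLC51B measured 4.81, 5.03 and 4.26 against 5.25, 4.91 and 5.08 with DMSO, a difference of -0.38 ± 0.15 log2 (unadjusted p = 0.0173, adjusted p = 1), with overlap. One exposed array stood low, and without that array, replicate 3, the difference was -0.16 log2.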

How the data were processed

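The authors deposited log2 probe set values of Affymetrix HT HG-U133+ PM arrays. Per the labels, each compound's set of 27 treated columns and 3 DMSO columns was normalized together by RMA; Partek is also named, and versions are not given in the sources used here. Of 54715 probe sets, 40914 had 1 gene symbol, 864 several, 12835 none and 102 were controls. Each gene was represented by its brightest single-symbol probe set, averaged across the 90 columns. With R 4.3.3, limma 3.58.1 fitted 1 mean per group to the 30 columns of the 2,4-D set, with Benjamini-Hochberg adjustment over 19774 genes. Intervals come from the moderated standard errors. Folds are 2,4-D over DMSO. In the fit as reported, compounds were compared after subtracting each set's own DMSO means. The test was checked on simulated data.

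Same-numbered replicates deviated together between 2,4-D at 10 µM and DMSO (r = 0.411, 0.306 and 0.164 across genes). From the data the numbers could pair the samples, while the labels do not state what they mark. The reported p-values, standard errors and intervals come from a fit without this pairing. A fit with the replicate number as a block is given among the alternatives below. Named genes were the 5 bright genes each way with the smallest p, those called between compounds with the largest differences, a list of 40 reporters, of which 36 were measured, and list extremes. The other genes named, among them list members at an unadjusted p below 0.05, genes with an extreme difference or limit and those nearest the threshold against low doses, were picked with their values in view. The comparison, its members and the lists were chosen with earlier results of these data known. No coordinates are printed, since no build is named in the files.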

Additional observations from a re-analysis of the deposited data

How the results depend on the processing

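No gene passed the threshold between 2,4-D at 10 µM and DMSO in the fit as reported or in any of its 19 alternatives by limma. At an unadjusted p below 0.05 there were 783 of 19774 genes in the fit as reported. The alternatives ran from 278, among the 8720 bright genes alone, to 2254, among all 54613 probe sets, so these counts have unlike totals. With the replicate block the count was 0 with 864 unadjusted, the comparison with the lowest doses and the slope gave 0 and 0, and 55 and 20 genes differed from imazalil and fenbuconazole, so the block changed no call count by over 1.5 times. The share of genes with a 1.5-fold change excluded stayed between 91.2% and 99.4% over filters, normalizations and arrays left out, and was 61.3% for a 25% change and 25.9% with the Bonferroni interval, both stricter by construction. Against imazalil the count of 50 was 10 to 19 with a replicate left out and 193 with joint normalization. Against fenbuconazole the count of 18 was 4 to 4 and 122. The joint fit also left out the subtraction of DMSO means, so its counts are not from the same comparison. The cause of the higher counts was not tested. Of 124 genes with a recorded difference, 42 had an unadjusted p below 0.05, and 0 of these turned sign under any alternative; 35 of the others did. The differences of single genes between compounds with a replicate left out were added after seeing the data. With 3 arrays a group, intervals were widest at signals of 3 to 6.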

Other observations

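The group of 10 µM held no unusual share of extreme means among the 10 groups of the 2,4-D set. It had the highest mean in 11.4% of genes and the lowest in 8.36%. At 0.03 µM these shares were 15.8% and 15.6%, the highest of any group, and DMSO had 9.27% and 6.46%. Each of the 8 lower doses also had 0 genes past the adjusted threshold against DMSO, with 515 to 1160 genes at an unadjusted p below 0.05, where 10 µM had 783.

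The differences of same-numbered 2,4-D and DMSO arrays were nearly unrelated between pairs. Across bright genes the correlations were 0.0181, 0.109 and -0.0479 for 2,4-D at 10 µM, and for imazalil at 10 µM they were -0.00743, 0.113 and 0.503. Genes are not independent replicates, and these values are given without a test.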
